A study of Mus musculus with 6 samples.

Results

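The AP-1 and BATF family was followed as 10 genes in adaptive regulatory T cells (aTreg) from wild type (WT) mice and from mice with BMPR1a-deficient T cells. The members were fixed by name and matched to the deposited table by symbol: Fos, Fosb, Fosl1 and Fosl2, Jun, Junb and Jund, Batf and Batf3, and Atf3. All 10 were among the 25759 gene identifiers of the table, and 6 of the 10 reached the mean of 1 FPKM needed for testing, as did 13413 identifiers in all. The remaining 4, Fosb, Fosl1, Batf3 and Atf3, are given as values only. FPKM are fragment numbers scaled to gene length and library size, so levels can be set side by side between genes.

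AP-1 is a dimer of basic leucine zipper (bZIP) proteins, usually a Fos protein with a Jun protein, and is assembled when a T cell is activated through its antigen receptor. BATF and BATF3 take the place of Fos in dimers with Jun proteins, and in T cells BATF with JUNB binds DNA beside the transcription factor IRF4. In mouse T cells BATF is needed for Th17 and follicular helper differentiation and for regulatory T cells of non-lymphoid tissues, and JUNB is needed for effector functions of regulatory T cells.

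The WT libraries came from C57BL/6 mice and the others, called the deficient group here, from C57BL/6 BMPR/CD4cre mice, whose Cre acts in cells that express or once expressed Cd4. Mice of both groups carried the Foxp3GFP reporter and were 8 to 12 weeks old. Spleen and lymph node cells of both groups were cultured as a mixed population for 3 days with IL-2 at 10 ng/ml, the mitogen ConA at 2 µg/ml and TGF-beta at 3 ng/ml, and CD4+Foxp3GFP+ cells were sorted. Each group had 3 libraries, and it is not stated whether they came from separate animals, so each p-value speaks only to the spread among these 6 libraries, and that spread may be technical. The cells had therefore been activated for days when they were sampled, and the first minutes and hours after activation, when Fos and Jun RNAs peak, are not covered.

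The step size of low FPKM values put the depth at about 29500000 to 37200000 fragments per library. Bmpr1a, the targeted gene, was at 1.39, 2.34 and 1.31 FPKM in WT and at 0.439, 0.720 and 0.691 in the deficient group (limma adjusted p = 0.183). Cd4, Foxp3, Cd3e and the other 6 defining markers of CD4 and regulatory T cells were above 1 FPKM in both groups. BMPR1a-deficient replicate 1 stood apart: the 13 mitochondrially encoded mRNAs summed to 5335 FPKM there. They summed to 44660 and 44710 FPKM in the other BMPR1a-deficient libraries, both below the 50440 to 53790 of WT. Log2 fold changes of the 6 tested members are given with and without BMPR1a-deficient replicate 1. Other values, among them sums, shares and ratios, include it unless stated. Of 13413 genes tested, 143 (1.07%) passed an adjusted p of 0.05 in limma, 100 higher and 43 lower in the deficient group than in WT. With quantile normalization the split was 88 higher and 70 lower, and without BMPR1a-deficient replicate 1 it was 134 and 76. At an unadjusted p under 0.05 in limma, 9.29% of all tested genes were higher and 5.87% lower.

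Promoter sequence is shown for Batf and Junb, the members whose groups did not overlap, and for Fos, the tested member with the lowest level in the deficient group relative to WT. The sequences are RefSeq reference sequence in GRCm38.p6, read 5′ to 3′ on the strand of the gene and ending before the start of the gene. They lie at chr12:85686470-85686668 on the + strand for Batf, at chr8:84978749-84978998 on the - strand for Junb and at chr12:85473640-85473889 on the + strand for Fos. Capitals mark matches to TGACG, the core of a cyclic AMP response element, and to GGCGCC, a GC-rich sequence bound by BMP-activated SMAD proteins.
Batf: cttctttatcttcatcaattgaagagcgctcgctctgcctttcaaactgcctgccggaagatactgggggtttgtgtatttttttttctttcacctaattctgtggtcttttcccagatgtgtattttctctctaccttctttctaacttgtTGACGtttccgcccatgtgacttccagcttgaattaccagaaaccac
Junb: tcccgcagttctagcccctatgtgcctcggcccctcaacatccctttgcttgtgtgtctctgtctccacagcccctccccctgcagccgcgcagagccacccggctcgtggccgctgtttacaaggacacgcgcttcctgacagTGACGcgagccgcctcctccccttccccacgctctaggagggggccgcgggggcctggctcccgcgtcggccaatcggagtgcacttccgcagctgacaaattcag
Fos: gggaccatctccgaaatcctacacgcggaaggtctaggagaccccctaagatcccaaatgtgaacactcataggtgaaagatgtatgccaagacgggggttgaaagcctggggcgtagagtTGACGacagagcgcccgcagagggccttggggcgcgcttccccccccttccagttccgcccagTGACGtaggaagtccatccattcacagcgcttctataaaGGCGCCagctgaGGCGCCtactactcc
The stretch of Batf was 42.2% G and C, that of Fos 58.4% and that of Junb 66.4%.

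Sequences were available for 9 of the 10 members, and 5 motifs were searched on both strands in the 250 bases before each RefSeq start. The AP-1 motif TGANTCA matched in 0 of the 9, against 6.75% of 32851 promoters of the same length. The full response element TGACGTCA also matched in 0 of the 9, against 1.55% of all. TGACG, which the full element contains and which was added after the sequences were read, matched in Fos, Fosb, Junb, Batf and Atf3, and in 17.8% of all promoters. GGCGCC matched in Fos, Fosb and Fosl2 and in 9.59% of all promoters. The STAT motif TTCNNNGAA matched only in Batf3 among the 9 members, and in 7.02% of all. A match to letters is not evidence of binding, and the absence of one covers this window only.

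In WT aTreg Junb was the highest member, above 90.1% of the tested genes in its mean over all libraries, followed by Jund, Batf and Jun. Junb was at 108 ± 4.76 FPKM (SD, n = 3), Jund at 63.8 ± 7.86, Batf at 56.2 ± 3.68 and Jun at 25.0 ± 6.52. Jund and Batf overlapped in their WT values, while Junb lay above and Jun below them in every library. Fos and Fosl2 came next at 5.98 ± 2.84 and 4.66 ± 1.41 FPKM and overlapped each other. The last 4 members stayed near or below 1 FPKM, under Fosl2 in every WT library. Of these Batf3, Atf3 and Fosb overlapped their neighbours in that order, and Fosl1 lay below all WT values of Fosb. The 3 Jun genes made up 73.9% ± 0.479 of the summed FPKM of the 10 members in WT, the Batf genes 21.4% ± 1.24 and the 4 Fos genes 4.39% ± 1.66 (SD, n = 3). The level of Jund, and with it the share of the Jun genes, is uncertain because of an overlapping antisense gene described with Jund.

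**Figure D1:**
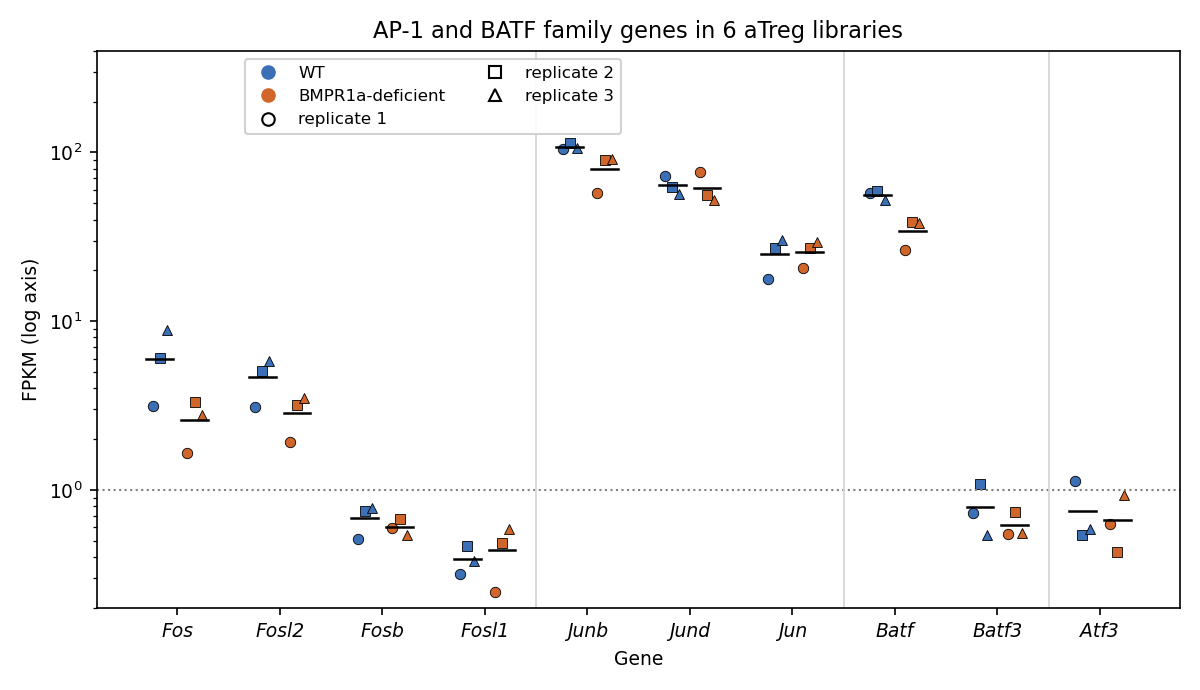
FPKM of the 10 members on a log axis in each of the 6 libraries, grouped as Fos genes, Jun genes, Batf genes and Atf3. Marker shapes are replicates, short bars are group means and the dotted line is the mean of 1 FPKM needed for testing. Batf and Junb are the members whose WT points all lie above the BMPR1a-deficient points.

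No member passed the threshold in limma over all genes tested, 0 of 6 higher and 0 of 6 lower, where 0.321% of all tested genes passed as lower and 0.746% as higher. At an unadjusted p under 0.05 in limma, 2 of the 6, Fos and Batf, were lower and 0 were higher, where 5.87% of all tested genes were lower by that rule. Batf kept this in all 12 alternative settings and Fos in 7, and the count of members was 1 to 3 over them. Fos dropped out of the count without WT replicate 2 or 3, without BMPR1a-deficient replicate 1 or 3, and without the filter. In 5 of the 6 tested members the log2 fold change, BMPR1a-deficient minus WT, was negative, but the sign of Jund, and that of Jun, the positive one, turned without WT replicate 1 or without BMPR1a-deficient replicate 3. The median over the 6 was -0.50, and over all genes tested it was 0.04. The BMPR1a-deficient values lay below every WT value in 2 of the 6, Batf and Junb, as they did in 10.4% of all tested genes. They lay above every WT value in 0 of the 6, and in 15.9% of all tested genes.

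Batf (ENSMUSG00000034266, chromosome 12, 85686669 to 85709087 on the + strand in GRCm38) was at 57.7, 58.9 and 52.0 FPKM in WT and at 26.4, 38.6 and 38.0 in the deficient group. Every BMPR1a-deficient library was below every WT library, and replicate 1 of that group was the lowest. In bulk RNA, fewer cells that make Batf and less Batf RNA per cell cannot be told apart. The BMPR1a-deficient mean was 61.2% of the WT mean, a log2 fold change of -0.71 (SE 0.168, limma 95% interval -1.12 to -0.30 without adjustment for the number of genes). The limma p was 0.00547 before adjustment and the adjusted p was 0.141, so the difference did not pass. An exact two-sided permutation test of the 6 values gave p = 0.1, the smallest that 3 against 3 libraries allow. Without BMPR1a-deficient replicate 1 the log2 fold change was -0.54 (limma adjusted p = 0.0608).

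Batf3, the close relative of Batf that is best known in mouse for the development of cross-presenting dendritic cells, was at 0.734, 1.09 and 0.540 FPKM in WT and at 0.548, 0.744 and 0.554 in the deficient group. Its groups overlapped, and it was below the level needed for testing. Nearly all RNA of the Batf genes was therefore Batf. The Batf genes together made up 16.6% ± 1.84 of the summed FPKM of the 10 members in the deficient group (SD, n = 3).

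Junb (ENSMUSG00000052837, chromosome 8, 84974484 to 84978718 on the - strand) was at 104, 113 and 107 FPKM in WT and at 57.2, 90.7 and 91.6 in the deficient group. The groups did not overlap, but replicate 1 of the BMPR1a-deficient group lay far below its other libraries. The log2 fold change was -0.46 (SE 0.201, limma 95% interval -0.95 to 0.03, adjusted p = 0.351). Without that replicate it was -0.24 (limma adjusted p = 0.154). Of the annotated exon bases of Junb, 7.52% are shared with Prdx2, a peroxiredoxin gene on the opposite strand. Prdx2 was at 111, 112 and 90.7 FPKM in WT and at 199, 128 and 120 in the deficient group. Strand handling is not given in the sources used here, so reads in the shared bases cannot be assigned to either gene.

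Batf was lower relative to Junb, its dimer partner, in each BMPR1a-deficient library. Their FPKM ratio stood at 0.553, 0.519 and 0.487 in WT libraries and 0.461, 0.426 and 0.415 in the deficient group. The ratio of Batf to Irf4, the factor that binds DNA beside BATF and JUNB, was 2.17, 1.72 and 2.10 in WT and 0.727, 1.27 and 1.08 in the deficient group. Irf4 itself was at 26.6, 34.3 and 24.8 FPKM in WT and at 36.3, 30.4 and 35.1 in the deficient group, and its groups overlapped. Both ratios are built from the Batf values given above, so they are no separate evidence. They are descriptions and were not tested.

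Jund, a Jun protein with broad and steady expression that often restrains cell growth, was at 72.3, 62.0 and 56.9 FPKM in WT and at 76.1, 55.6 and 52.4 in the deficient group. The groups overlapped throughout, with a log2 fold change of -0.07 (SE 0.176, limma 95% interval -0.50 to 0.36, adjusted p = 0.867). Of its exon bases, 52.6% are shared with the antisense gene Gm11175, which was listed at 147 to 207 FPKM over the 6 libraries, so the level of Jund is uncertain.

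Jun, the founding Jun protein and a strong activator in dimers with FOS, was at 17.7, 27.3 and 30.1 FPKM in WT and at 20.6, 27.3 and 29.4 in the deficient group. Its range was nearly the same in both groups, with a log2 fold change of 0.06 (SE 0.234, limma 95% interval -0.51 to 0.63, adjusted p = 0.910). The antisense transcript Junos shares 7.28% of the exon bases of Jun and was at 2.16 to 5.23 FPKM. Jun, Junb and Jund each have 1 exon in their longest annotated transcript, while the other 7 members have 3 or 4.

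Fos (ENSMUSG00000021250, chromosome 12, 85473890 to 85477273 on the + strand), the immediate early partner of Jun, was at 3.12, 6.03 and 8.80 FPKM in WT and at 1.65, 3.32 and 2.79 in the deficient group. WT replicate 1 fell within the BMPR1a-deficient range, so the groups overlapped. The BMPR1a-deficient mean was 43.2% of the WT mean, with a log2 fold change of -0.90 (SE 0.354, limma 95% interval -1.77 to -0.04 without adjustment, adjusted p = 0.315). Without BMPR1a-deficient replicate 1 the log2 fold change was -0.70 (limma adjusted p = 0.394). With all libraries Fos had the widest interval of the 6 tested members. The exact two-sided permutation p of the 6 values was 0.2.

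Fosl2, which encodes FRA-2, a Fos protein that limits the plasticity of Th17 cells in mice, was at 3.09, 5.08 and 5.82 FPKM in WT and at 1.92, 3.19 and 3.49 in the deficient group. As for Fos, the lowest library of each group was replicate 1, and WT replicate 1 lay within the other group's range. The log2 fold change was -0.54 (SE 0.256, limma 95% interval -1.17 to 0.08, adjusted p = 0.380), and it was -0.35 without BMPR1a-deficient replicate 1 (limma adjusted p = 0.476).

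Markers of B cells, another cell type of the culture, ran in the same order as Fos within each group. The 7 B cell markers, all above 1 FPKM in at least 1 group, summed to 28.7, 42.4 and 55.6 FPKM in WT and to 41.0, 55.2 and 50.0 in the deficient group. Their part in the values of Fos was not tested. The sums overlapped between the groups.

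Fosb, an immediate early Fos gene, was at 0.511 to 0.776 FPKM in WT and at 0.537 to 0.671 in the deficient group. Fosl1, which encodes FRA-1, was at 0.318 to 0.467 and at 0.248 to 0.586. The groups overlapped for both genes. Of the exon bases of Fosl1, 57.2% are shared with Ccdc85b on the opposite strand, which was at 11.3 to 36.8 FPKM, so even this low level of Fosl1 may hold reads of its neighbour.

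Atf3, a stress-induced bZIP gene that is strongly expressed by activated myeloid cells, was at 1.12, 0.543 and 0.587 FPKM in WT and at 0.628, 0.427 and 0.931 in the deficient group. It was highest in WT replicate 1 and BMPR1a-deficient replicate 3. The 10 myeloid markers, led by Lyz2 and with 8 above 1 FPKM in at least 1 group, summed to 137, 25.1 and 51.1 FPKM in WT and to 21.9, 96.6 and 226 in the deficient group. They were highest within each group in those same libraries, and their part in the values of Atf3 was not tested. The pair of CD8 T cell markers summed to 41.8, 32.7 and 32.0 FPKM in WT and to 37.9, 44.0 and 68.4 in the deficient group. Of these Cd8a was at 8.80 to 11.7 in WT and at 13.8 to 29.1 in the deficient group, without overlap, while Cd8b1 overlapped. Of all tested genes, 15.9% lay above every WT value in this way. The 5 NK cell markers, led by Eomes, summed to 5.56 to 9.31 FPKM in WT and to 3.05 to 8.36 in the deficient group. Of these Klrb1c was at 0.0692 to 0.126 in WT and at 0.598 to 0.760 in the deficient group, and Ncr1 was at 0 in each library but BMPR1a-deficient replicate 2. Eomes overlapped and lay the other way in its means, at 6.93 FPKM in WT and 4.92 in the deficient group. Klra8 and Klra4 did not exceed 0.03 FPKM in any library. The 4 erythroid markers summed to at most 0.384. The part of these cells in the values of the members was not tested.

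**Figure D2:**
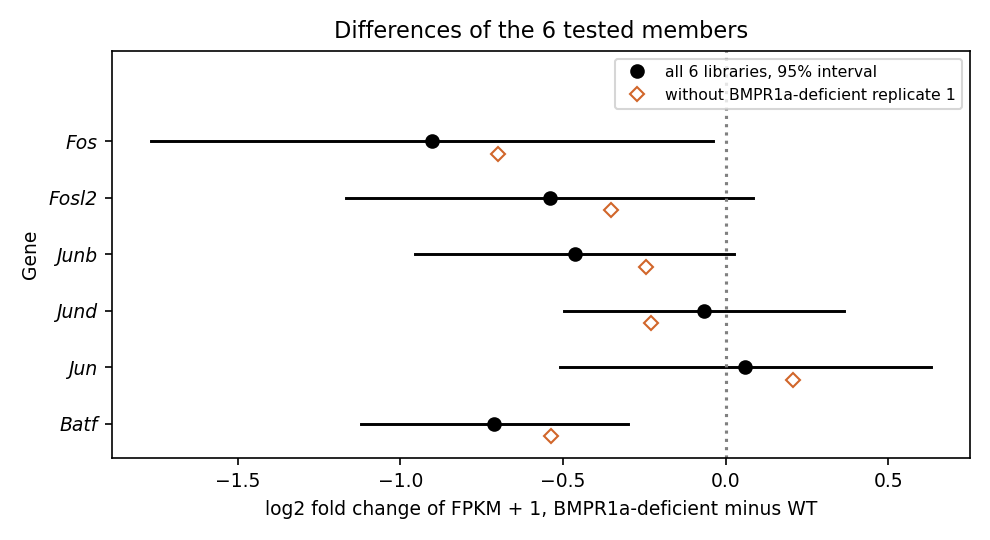
Log2 fold changes of the 6 tested members (black points) with 95% limma intervals (lines, not adjusted for the number of genes), and the same without BMPR1a-deficient replicate 1 (open diamonds). Leaving that library out moved Batf from -0.71 to -0.54 and Junb from -0.46 to -0.24.

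The distance of each library from the WT mean differed between members. BMPR1a-deficient replicate 1 was lowest of all libraries for Fos, Fosl2, Junb and Batf, at -1.31, -0.92, -0.91 and -1.06 on the log2(FPKM + 1) scale. For the same genes the other BMPR1a-deficient libraries lay at -0.61 and -0.79, -0.40 and -0.30, -0.25 and -0.24, and -0.53 and -0.55. BMPR1a-deficient replicate 1 is the library with the lowest mitochondrial mRNAs, and the part of whatever set it apart in these values was not tested. Jund went the other way in it, at 0.26. The summed FPKM of the 10 members was 266 ± 8.09 in WT and 209 ± 20.1 in the deficient group (SD, n = 3). Of that sum the Jun genes held 80.0% ± 2.42 in the deficient group and the Fos genes 3.07% ± 0.603.

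**Figure D3:**
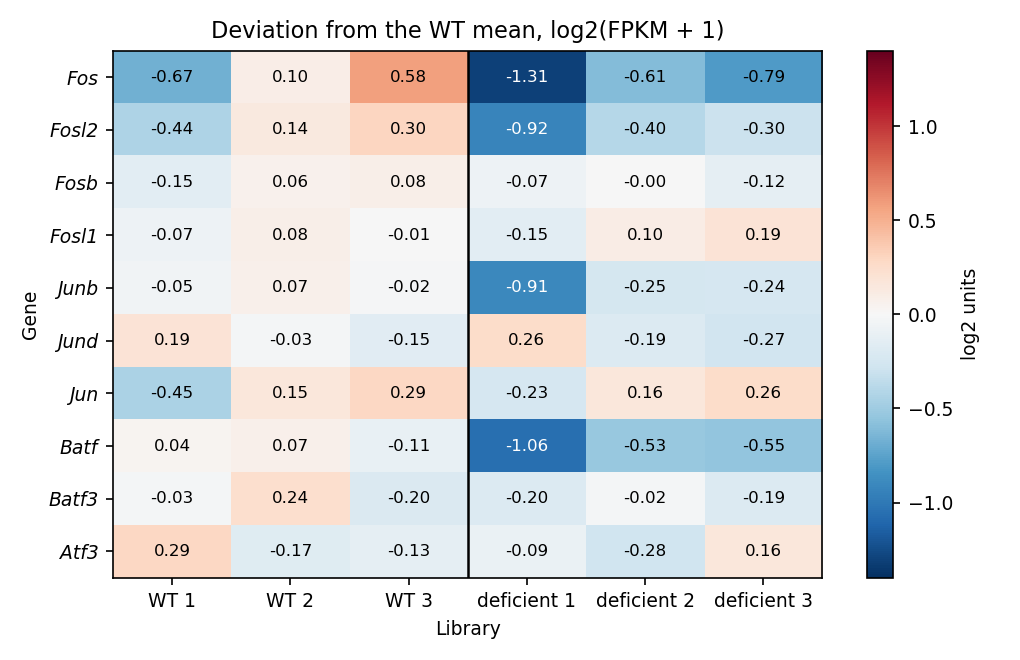
Deviation of each member in each library from its WT mean, in log2(FPKM + 1) units, with WT libraries left of the line and BMPR1a-deficient ones right of it. Blue is below and red above the WT mean, and the lowest values are those of Fos (-1.31) and Batf (-1.06) in BMPR1a-deficient replicate 1.

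The positions of the members fall into neighbourhoods that the choice of genes did not use. Fos and Batf lie on chromosome 12 with starts 212.8 kb apart and on the same strand, and the only gene of the table between them is Jdp2 (85599027 to 85639878), which encodes a bZIP protein that pairs with Jun proteins and represses AP-1. Jdp2, taken up here after its values were seen, was at 5.89, 3.09 and 2.97 FPKM in WT and at 5.44, 10.9 and 11.2 in the deficient group. The groups overlapped through replicate 1 of each. The log2 fold change of Jdp2 was 1.02 (SE 0.332), with a limma p of 0.0218 before adjustment and an adjusted p of 0.250. The group means of the repressor and of its neighbours Fos and Batf thus lay in opposite directions, without passing the threshold for any of them. Within the deficient group, however, replicate 1 had the lowest value of Jdp2 as well as of Fos and Batf. Batf3 and Atf3 also neighbour each other, on chromosome 1, facing each other with starts 120.2 kb apart and with 0 genes of the table between them.

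**Figure D4:**
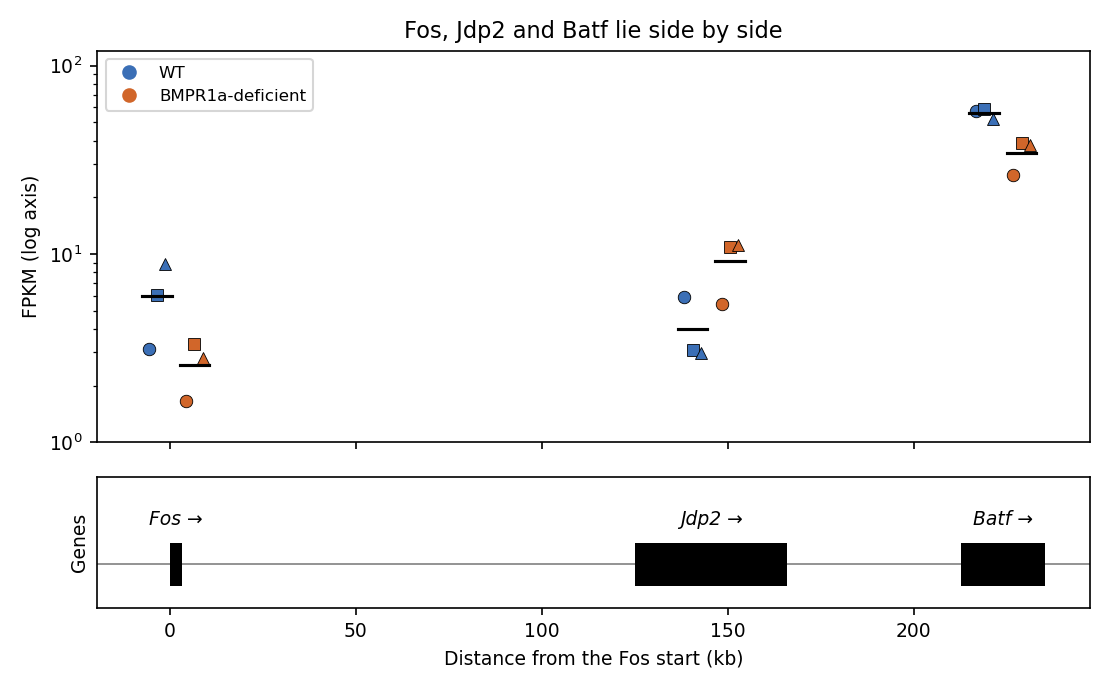
FPKM on a log axis for Fos, Jdp2 and Batf (upper panel, marker shapes for replicates 1 to 3 as circle, square and triangle, bars for group means) above their positions in kb from the Fos start (lower panel). Fos and Batf means are lower and the Jdp2 mean is higher in the deficient group.

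Of the other bZIP genes, 34 were found and 26 tested, and 0 passed the threshold in limma, with 3 higher and 1 lower at an unadjusted p under 0.05 and a median log2 fold change of 0.05. Over all tested genes 9.29% were higher and 5.87% lower by that p, 0.746% and 0.321% passed the threshold as higher and lower, and the median was 0.04. The counts of this list and of those that follow are read against these shares. The smallest p belonged to Maf, a regulator of IL-10 and of helper T cell subsets, at 9.14, 7.72 and 8.91 FPKM in WT and 17.5, 13.2 and 13.4 in the deficient group (log2 fold change 0.70, limma adjusted p = 0.0915). Next was Mafg, a small Maf protein, at 5.14 ± 0.398 and 7.14 ± 0.315 FPKM (SD, n = 3, limma adjusted p = 0.135). The groups did not overlap for Maf or Mafg, and both lay above every WT value, as did 15.9% of all tested genes.

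The IRF and NFAT families include proteins that bind DNA together with AP-1 or BATF, such as IRF4, but not all members do. Of their 11 tested genes, 0 passed, with 0 higher and 1 lower at an unadjusted p under 0.05 and a median of 0.05. Irf7, an interferon-induced factor, was at 40.3 ± 8.06 FPKM in WT and 24.0 ± 9.02 in the deficient group (SD, n = 3, limma adjusted p = 0.325), and its log2 fold change was -0.78 with and -0.45 without BMPR1a-deficient replicate 1.

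Of the 28 tested kinases and serum response factors that lead to AP-1, 0 passed, and the median was -0.01. At an unadjusted p under 0.05 in limma, 2 were higher and 3 lower, against 9.29% and 5.87% of all tested genes. Counts this small cannot show a difference from those shares. Map3k5, the stress kinase ASK1, was at 16.7 ± 0.761 FPKM in WT and 12.7 ± 0.345 in the deficient group (SD, n = 3, limma adjusted p = 0.117). Prkcq, protein kinase C theta, which links the antigen receptor to AP-1 and NF-kappaB, was at 111 ± 3.40 and 85.1 ± 5.09 (limma adjusted p = 0.157). Both lay below every WT value in each BMPR1a-deficient library, as did 10.4% of all tested genes. Their log2 fold changes were -0.37 and -0.38.

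Among 25 tested immediate early genes other than AP-1, 1 passed as higher and 0 as lower over all genes tested, with 5 higher and 1 lower at an unadjusted p under 0.05 (9.29% and 5.87% of all tested genes) and a median of 0.10. Nr4a3, an orphan nuclear receptor induced by antigen receptor signals, rose from 23.0, 26.3 and 23.9 FPKM to 39.2, 45 and 45 (log2 fold change 0.79, limma adjusted p = 0.038). This call was lost without each WT library and without BMPR1a-deficient replicates 2 and 3 (limma adjusted p = 0.113 to 0.198), and with a replicate block (adjusted p = 0.127). Nr4a3 and Fos, induced by the same kind of signal, lay in opposite directions from WT here. The 10 tested dissociation and heat shock genes had 0 past the threshold, 0 higher and 1 lower at an unadjusted p under 0.05 and a median of 0.16. Dnajb4 and Hsph1, chaperone genes, had the smallest p there, with log2 fold changes of -0.49 and 0.49 (limma adjusted p = 0.133 and 0.400).

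Among 17 tested genes linked to BATF in T cells and tissue regulatory T cells, 2 passed as higher and 0 as lower over all genes tested, with 9 higher and 1 lower at an unadjusted p under 0.05. Of all tested genes 0.746% passed as higher, and 9.29% were higher and 5.87% lower at the unadjusted p. The median log2 fold change was 0.49, opposite in sign to that of Batf. Pdcd1, which encodes PD-1, rose from 15.2, 20.02 and 15.0 FPKM to 65.3, 42.0 and 42.0 (log2 fold change 1.496, limma adjusted p = 0.045). Tnfrsf9, which encodes 4-1BB, rose from 129, 142 and 127 to 224, 263 and 243 (0.87, adjusted p = 0.038). Both calls were lost without each WT library and without BMPR1a-deficient replicates 2 and 3, where the limma adjusted p was 0.108 to 0.233 for Pdcd1 and 0.113 to 0.190 for Tnfrsf9, and with a replicate block (adjusted p = 0.149 and 0.144). The list was drawn up with earlier results of these data known, so its direction is no independent evidence.

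**Figure D5:**
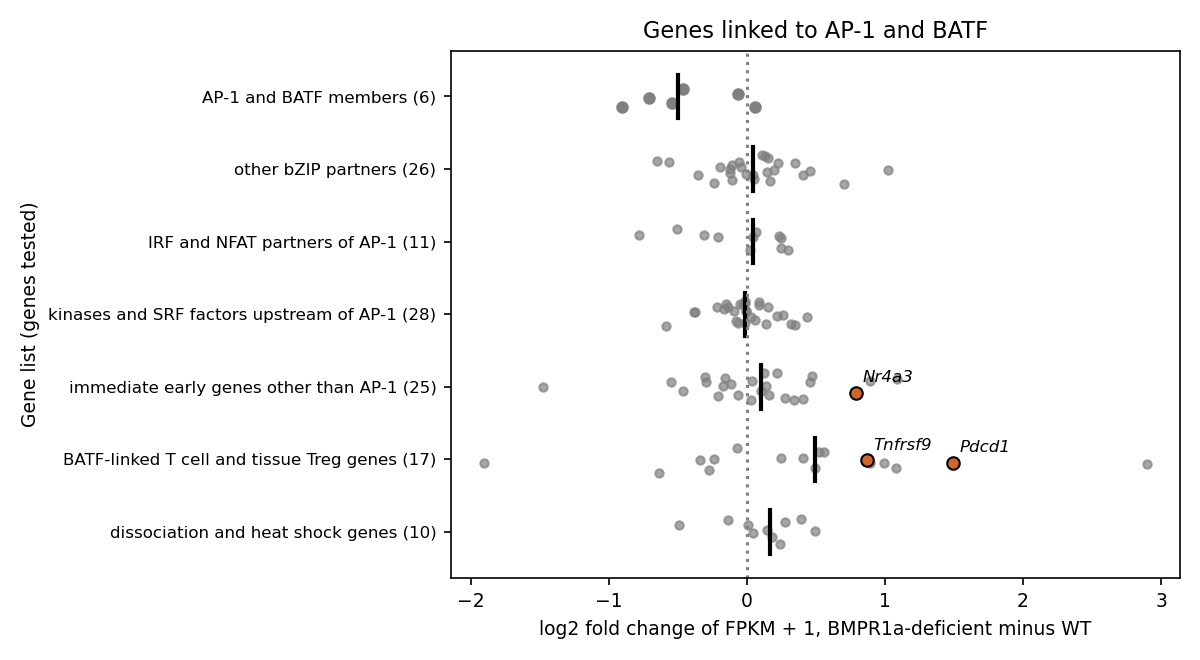
Log2 fold changes of the tested genes of each list (points, placed at random heights within a row), with the list median as a bar and genes past an adjusted p of 0.05 in orange. The median of the 6 tested members (-0.50) lies left of 0 and that of the BATF-linked genes (0.49) right of it.

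Across the 6 libraries, the genes most like Batf by Pearson's r of log2(FPKM + 1) were Rps10 (0.998), Lpcat3 (0.995) and Trav14d-3-dv8 (0.995). For Junb they were Crk (0.9999), Ctla4 (0.999) and Rap1b (0.999), and for Jund they were Paqr4 (0.991), Gnas (0.986) and Zfp772 (0.984). Ctla4, an inhibitory receptor of regulatory T cells, was at 238, 275 and 249 FPKM in WT and at 104, 205 and 203 in the deficient group, with the same low replicate 1 as Junb. Each value rests on 6 points that include any difference between groups and the outlying BMPR1a-deficient replicate 1. The genes were picked as the highest r among the tested genes that are not members. Each r is therefore given only as a description.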

How the data were processed

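RNA of 6 libraries was compared, 3 per group. The deposited values are FPKM, made by the authors with TopHat2, Cufflinks and Cuffdiff on GRCm38.p4, per the submitters' processing notes. Not given in the sources used here are versions, settings, strand handling, annotation and scaling between libraries. Since FPKM hold no counts, limma on a log scale was used. Symbols and positions came from GENCODE M21 (GRCm38) and matched 24876 of 25759 identifiers. Depth was estimated from the most frequent low value of FPKM times length in 4318 genes and is rough. The test was limma 3.58.1 (R version 4.3.3) on log2(FPKM + 1) for genes whose mean FPKM reached 1, eBayes with trend, two-sided, Benjamini-Hochberg over all 13413 genes, threshold 0.05. Fold changes on this scale understate those of low genes. The fit was also run on simulated data with independent noise in each gene. That simulation had no outlying library and cannot speak to one. Named genes are the 10 members, the genes of each list that passed (otherwise the 2 with the smallest p), and for the 3 highest members the 3 genes with the highest correlation. Jdp2 and Zfp36 were added after their values were seen. The members and lists were chosen with earlier results of these data known. Mkl1 and Mkl2 were matched as Mrtfa and Mrtfb, and Atf7 and Irf8 were not analysed here. Of the columns, 0 were unmapped. There were 12 alternatives: pseudocount, filter, scaling, eBayes trend, replicate block and each library left out.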

Additional observations from a re-analysis of the deposited data

How the results depend on the processing

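Across the 12 alternatives, 0 members passed the threshold in limma, and Batf, Fos, Fosl2 and Junb kept a negative log2 fold change in all of them. Batf ranged from -0.80 to -0.54 (limma adjusted p 0.0608 to 0.376), Junb from -0.58 to -0.24 (0.154 to 0.652), Fos from -1.24 to -0.62 (0.204 to 0.655) and Fosl2 from -0.76 to -0.35 (0.201 to 0.702). Jun turned to -0.16 without WT replicate 1 and to -0.04 without BMPR1a-deficient replicate 3, and reached 0.21 without BMPR1a-deficient replicate 1. Jund turned to 0.03 and 0.035 without those first 2 libraries and was -0.23 without the third. Leaving out 1 library gave 14 to 210 calls over all genes, 10 to 134 higher and 4 to 76 lower, and 0 to 7 calls in the 6 linked lists against 3 with all libraries. Quantile normalization gave 70 lower calls. The replicate block gave 10 calls, 5 higher and 5 lower, and 0 in the linked lists, and the cause was not tested. Whether same-numbered libraries form pairs is not known from these values. Their deviations correlated at 0.01, 0.064 and 0.052, which cannot decide it with 3 libraries per group. With the replicate block the limma p before adjustment fell from 0.0431 to 0.00877 for Fos and from 0.0788 to 0.00731 for Fosl2. For Batf it rose from 0.00547 to 0.0129. The call of Pdcd1 was lost without the filter (adjusted p = 0.0736). Bmpr1a kept its direction and side of the threshold in all 12. Fits with a library left out rest on fewer libraries, which lowers power. Without the outlying BMPR1a-deficient replicate 1, however, there were 210 calls over all genes against 143 with all libraries. Exact permutation of 3 against 3 libraries cannot go below 0.1.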
